A study of Rattus norvegicus with 26 samples.

Results

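The transcripts of 8 genes that build or organise the neuronal cytoskeleton were followed through injury and cell transplantation in the rat spinal cord. They were Nefl, Nefm and Nefh (the light, medium and heavy neurofilament subunits), Ina (alpha-internexin), Map2, Mapt (tau), Tubb3 (class III beta-tubulin) and Stmn2 (stathmin 2). The genes were chosen by name, as the entries of the count table that carry these 8 gene names, out of 32883 genes in the table. All 8 were among the 17990 genes with enough reads to be tested.

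Neurofilaments are the intermediate filaments of neurons. Nefl, Nefm, Nefh and Ina assemble together into polymers that fill large axons and set their calibre, and motor neurons and large sensory neurons carry many of them. Microtubules run beside these filaments, built from alpha- and beta-tubulin, bundled by Map2 in cell bodies and dendrites and by tau in axons, and made to disassemble by stathmins such as Stmn2, which is found in growth cones and in regrowing axons. Released neurofilament subunits are widely used as a sign of axonal damage, while the transcripts measured here report on RNA in the tissue, most of which lies in cell bodies.

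RNA sequencing covered 26 poly(A) libraries from wild type female Sprague-Dawley rats, all given the age label post natal day 70. The cord was compressed at the thoracic level with an aneurysm clip of 60 g for 1 min, and 5 mm pieces around the lesion were taken. Intact comprised intact or sham rats (4 libraries), and sub-SCI comprised injured rats at the time of transplantation, 7 days after injury (0 weeks post transplantation, wpt; 3 libraries). The other injured rats received hUC-MSCs (+MSC), which are mesenchymal stem cells from human umbilical cord, or PBS alone (+PBS) by the intrathecal route at 7 days. +PBS comprised 3, 2 and 4 libraries and +MSC 3, 3 and 4 libraries at 1, 2 and 4 wpt. According to the study's methods the rats were given the immunosuppressant cyclosporin A each day over the experiment.

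The libraries held between 19496602 and 43468509 counted reads, and the 8 genes were covered by 549 (Ina, sub-SCI replicate 3) to 84215 reads (Nefm, +MSC-1w replicate 1), so that sampling of reads adds little to the spread between libraries. All 31 pairs of libraries within a group differed by more than sampling noise. The closest pair was +MSC-2w replicates 2 and 3, with a chi-square per degree of freedom of 5.48. The next closest, Intact replicates 3 and 4, had 12.8. The study's methods list 2 repeats for +MSC-2w, and separate libraries of the same rat would also differ by more than sampling noise. Whether these libraries come from different rats cannot be told from the labels. Some libraries stood apart. Sub-SCI replicate 3 had the lowest level of all 26 libraries for each of the 8 genes, and +PBS-4w replicate 1 was the highest of its group for all of them but Map2. The libraries numbered 1 lay above the mean of the rest of their group in 5 to 7 of the 8 groups, depending on the gene, and those of +PBS-2w below it for every gene. Results that rest on one of these libraries are given with and without it. The study's methods call the libraries of a condition biological replicates, while the labels do not tie each library to a rat of its own. The tests set each difference against the spread between these libraries.

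In the Intact cord the 8 transcripts were abundant and unequal. Levels are given as CPM, the usual counts scaled to the library total after TMM normalization, and per kilobase of transcript where genes are compared with each other. Per kilobase, Nefm stood at 1105 ± 97.2 CPM per kb (SD, n = 4 here and for the next genes), Nefl at 982 ± 85.1 CPM per kb and Nefh at 707 ± 58.9 CPM per kb. The ranges of Nefm and Nefl overlapped, and every library had less Nefh than either. Tubb3 followed at 402 ± 53.9 CPM per kb and Stmn2 at 186 ± 12.1 CPM per kb. Map2 stood at 125 ± 13.1 CPM per kb, Ina at 99.4 ± 11 CPM per kb and Mapt at 78.4 ± 3.47 CPM per kb. Map2 and Ina overlapped at the edge, 113 against 115 CPM per kb, while the other neighbours in this order, from Nefl down, did not overlap. Tubb3 has close relatives among the beta-tubulin genes, and its count is uncertain to the extent that reads were shared between them.

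**Figure D1:**
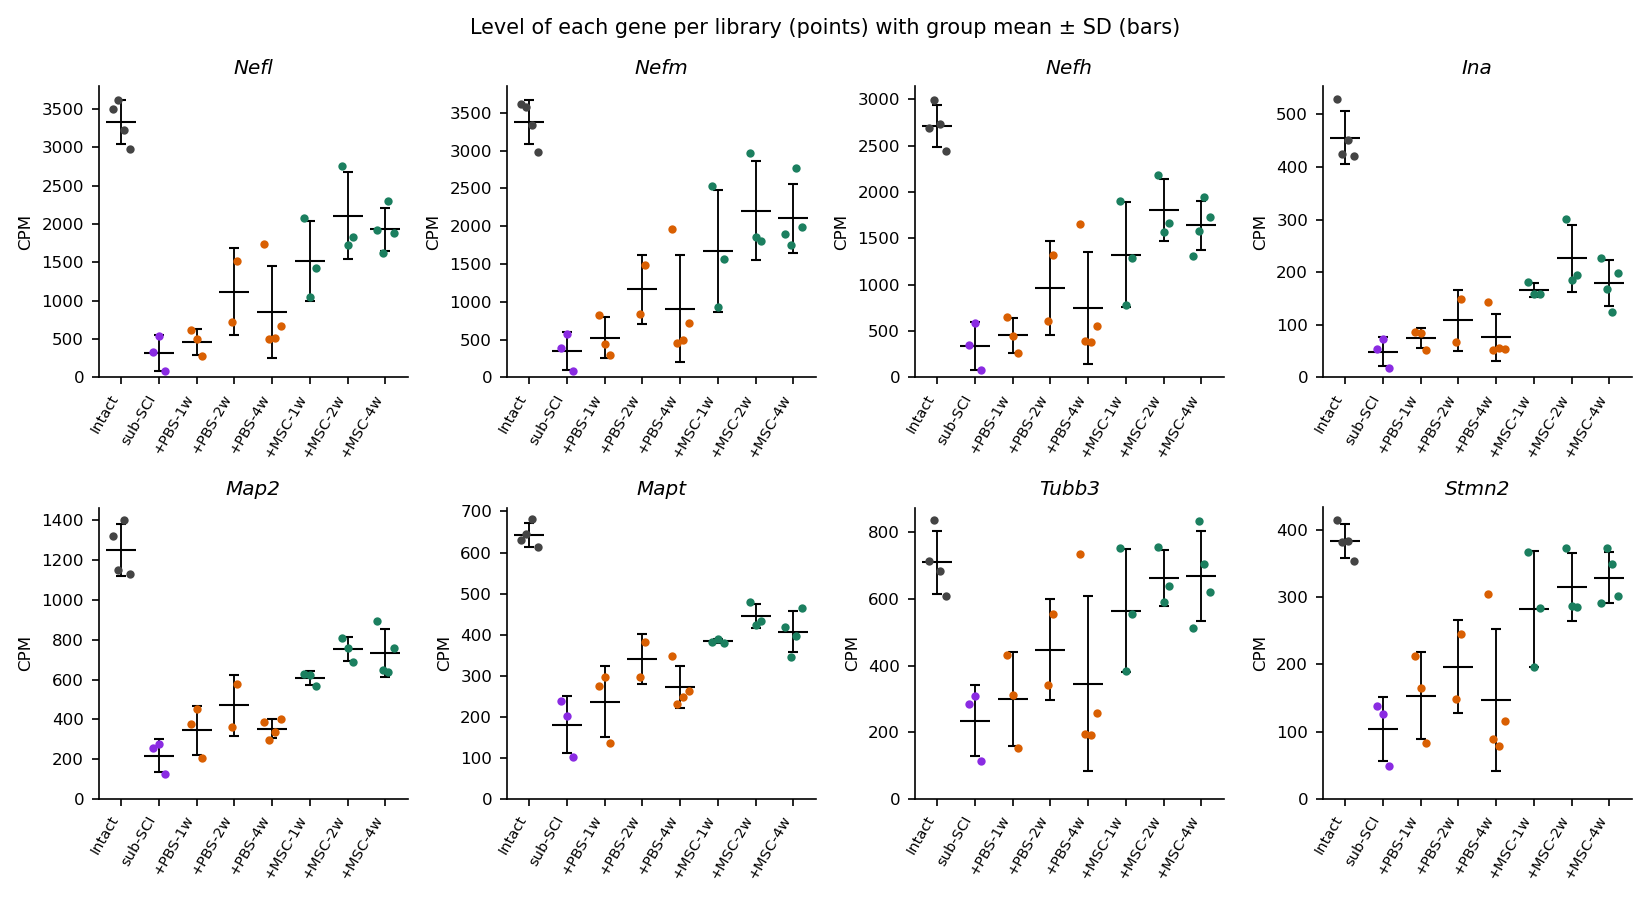
Level of each of the 8 genes (one panel each, CPM on a linear axis) in each of the 26 libraries, by group, with the group mean and SD. Sub-SCI replicate 3 is the lowest library in every panel, and +PBS-4w replicate 1 the highest of its group in all panels but that of Map2.

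RefSeq (build GRCr8) gave a promoter for 3 of the 8 genes, Ina, Map2 and Tubb3. The 250 bases before each start are shown because these are the members with an entry, and they differ in base composition. All 3 lie on the plus strand, and capitals mark GC boxes, matches of GGGCGG on either strand.
Ina, chr1:255837879-255838128: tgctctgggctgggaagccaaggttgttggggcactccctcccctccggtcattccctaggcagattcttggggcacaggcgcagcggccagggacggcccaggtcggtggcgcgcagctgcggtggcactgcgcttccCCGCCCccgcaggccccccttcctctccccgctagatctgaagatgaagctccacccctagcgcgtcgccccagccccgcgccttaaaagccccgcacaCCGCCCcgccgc
Map2, chr9:75346440-75346689: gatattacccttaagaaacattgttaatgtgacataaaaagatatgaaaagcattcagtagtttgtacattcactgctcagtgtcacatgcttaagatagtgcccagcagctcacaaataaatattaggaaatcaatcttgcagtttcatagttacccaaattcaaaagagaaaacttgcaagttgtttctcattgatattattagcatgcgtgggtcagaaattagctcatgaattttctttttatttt
Tubb3, chr19:68365437-68365686: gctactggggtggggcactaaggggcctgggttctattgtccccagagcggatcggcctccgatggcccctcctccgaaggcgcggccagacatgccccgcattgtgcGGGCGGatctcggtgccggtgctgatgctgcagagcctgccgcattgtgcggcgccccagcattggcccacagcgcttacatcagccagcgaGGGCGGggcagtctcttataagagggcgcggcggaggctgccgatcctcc
GC content was 70.8% for Ina, 68% for Tubb3 and 32% for Map2, against a median of 51.2% over 33465 promoters, and 2.87% of promoters lay below Map2. Ina and Tubb3 held 2 GC boxes each and Map2 held 0. This motif was present in 30.5% of all promoters. The other motifs searched on both strands were CCAAT (1 match in Tubb3, present in 34% of promoters), the E-box CANNTG (1 match each in Ina and Map2, 65.5%), TATAAA (12.9%) and TGACG of the cyclic AMP response element (18.2%). The last 2 had no match in these windows. No match overlapped a match of another motif. Nefl, Nefm, Nefh, Mapt and Stmn2 had no entry.

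All 8 transcripts fell at the time of transplantation. The first comparison, sub-SCI against Intact, asks what 7 days of injury did to them. Levels dropped to between 9.51% (Nefl) and 33.1% (Tubb3) of the Intact mean, the neurofilament subunits most and Mapt, Stmn2 and Tubb3 least. All 8 were called lower (adjusted p under 0.05, edgeR's quasi-likelihood F-test, with p-values adjusted by Benjamini-Hochberg over all genes tested), where 30.9% of all genes were called lower. All 8 also passed the threshold of the study for a differentially expressed gene (DEG, adjusted p under 0.01 and absolute log2 fold change above 1), against 17.5% of all genes. The study applied this threshold with DESeq2, and it is applied to edgeR's test here. The groups did not overlap for any of the 8, with 34% of all genes lower without overlap. In tissue pieces, fewer neurons, less RNA per neuron and a larger share of RNA from other cells cannot be told apart.

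Of the neurofilament subunits, Nefl, which forms the core of the filament, stood at 3502, 3622, 3229.6 and 2976 CPM in the Intact libraries and 336, 536 and 78.4 CPM in the sub-SCI libraries. Sub-SCI replicate 3 was far below the other two, and even the highest sub-SCI library was far below the lowest Intact one. Nefl fell 10.5-fold (log2 fold change -3.39 ± 0.54 (SE), adjusted p = 1.35e-05). Nefm, whose long tail projects from the filament, went from 3624, 3583, 3335 and 2977 CPM to 386, 579 and 86.3 CPM (log2 fold change -3.27 ± 0.59 (SE), adjusted p = 5.58e-05). Nefh, the most heavily phosphorylated subunit of mature axons, went from 2689.6, 2999, 2734 and 2446 CPM to 347, 589 and 76.9 CPM (log2 fold change -3.01 ± 0.58 (SE), adjusted p = 0.000122). The libraries kept the same order for all 3 subunits within sub-SCI. Ina, which is expressed early in neuronal development and joins the triplet proteins in mature axons, went from 528, 424, 450.3 and 419.9 CPM to 53.9, 73.5 and 18.6 CPM (log2 fold change -3.23 ± 0.43 (SE), adjusted p = 1.64e-06).

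Among the microtubule-associated proteins, Map2 stood at 1319, 1151, 1401 and 1132 CPM in Intact and 254, 275 and 123 CPM in sub-SCI, and had the smallest adjusted p of the 8 genes (log2 fold change -2.52 ± 0.26 (SE), adjusted p = 5.34e-08). Mapt, which is also transcribed in oligodendrocytes, went from 631, 646, 681 and 614 CPM to 238, 202 and 102 CPM (log2 fold change -1.83 ± 0.25 (SE), adjusted p = 1.64e-06). For both genes sub-SCI replicate 3 was again lowest. Tubb3, the beta-tubulin used as a marker of neurons, went from 713, 836, 682 and 608 CPM to 284, 308 and 113 CPM (log2 fold change -1.59 ± 0.44 (SE), adjusted p = 0.00332). Stmn2 went from 415, 382, 383 and 354 CPM to 138, 126 and 48.6 CPM (log2 fold change -1.88 ± 0.42 (SE), adjusted p = 0.00054). Tubb3 and Stmn2 together with Mapt therefore had the smallest differences, and their groups still did not overlap. Leaving out any of the 26 libraries left all 8 genes called.

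Markers of other cells moved in the same comparison, in which 30.9% of all genes were called lower and 30.5% higher. Neuron markers summed to 4698 to 5784 CPM in the Intact libraries and 425 to 1184 CPM in sub-SCI, with 14 of 14 genes called lower. Motor neuron markers summed to 175 to 277 CPM in Intact and 9.97 to 43.4 CPM in sub-SCI (5 of 5 called lower). Microglia and macrophage markers summed to 371 to 628 CPM in Intact and 4624 to 6362 CPM in sub-SCI, with 12 of 12 called higher. For fibroblast and scar genes the sums were 172 to 1294 CPM and 8073 to 19782 CPM, with 10 of 10 called higher. Glial markers were lower, those of oligodendrocytes at 52464 to 59402 CPM and 18172 to 36921 CPM (11 of 12 called lower), those of astrocytes at 8473 to 8707 CPM and 2709 to 4529.8 CPM (8 of 10 called lower). The ranges of these sums in Intact and sub-SCI did not overlap. Endothelial sums were higher in sub-SCI without overlap, at 308 to 410 CPM in Intact and 524 to 751 CPM in sub-SCI. Those of Schwann cell markers overlapped, at 768 to 2313 CPM in Intact and 954 to 1302 CPM in sub-SCI. No marker of these lists was at 0 in any group, and their part in the results for the 8 genes was not tested.

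In injured cords without cells the 8 transcripts stayed below Intact. All 12 injured libraries without cells lay below the lowest Intact library for 7 genes, and 11 of the 12 for Tubb3. The 4 groups share the same Intact libraries, so that their differences from Intact are set side by side and are not independent. At 1 wpt all 8 genes were called lower (26.4% of all genes lower), at 2 wpt 4 (Nefl, Ina, Map2 and Mapt; 17%) and at 4 wpt all 8 (23.9%). DEGs numbered 7, 2 and 7 (12.5%, 5.66% and 10.7% of all genes). Groups did not overlap for 8, 8 and 7 of the genes at 1, 2 and 4 wpt, Tubb3 being the exception, against 30.5%, 31.3% and 21.3% of all genes. The comparison at 2 wpt rests on 2 +PBS libraries, and 6 genes passed an unadjusted p under 0.05 there.

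The Nefl level was 616, 501 and 279 CPM at 1 wpt, 719 and 1517 CPM at 2 wpt and 1745, 505, 507 and 664 CPM at 4 wpt in +PBS. The mean was 14%, 33.5% and 25.7% of Intact at the 3 weeks (log2 fold change -2.84 ± 0.53 (SE), adjusted p = 0.000116 at 1 wpt, log2 fold change -1.58 ± 0.58 (SE), adjusted p = 0.0369 at 2 wpt and log2 fold change -1.96 ± 0.45 (SE), adjusted p = 0.00105 at 4 wpt). The order of the weeks was not read as a course over time, since +PBS-2w replicate 2 and +PBS-4w replicate 1 lay well above the other libraries of their groups. Without +PBS-4w replicate 1 the Nefl mean at 4 wpt was 16.8% of Intact. Without +PBS-2w replicate 1 none of the 8 genes was called at 2 wpt (3.28% of all genes lower in that fit). Without +PBS-4w replicate 1, 7 were called (20.4% of all genes lower), and without sub-SCI replicate 3, 6 (17.5%); these libraries enter through the estimate of the spread that all groups share. Nefl lost its call at 2 wpt without Intact replicate 1, 2 or 3 (adjusted p = 0.0511 to 0.0607 in edgeR).

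Nefm stood at 826, 446 and 298 CPM at 1 wpt, 839.9 and 1486 CPM at 2 wpt and 1968, 459, 495 and 723 CPM at 4 wpt, which is 15.5%, 34.4% and 27.0% of the Intact mean, and 16.5% at 4 wpt without +PBS-4w replicate 1. For Nefh the levels were 648, 451 and 267 CPM at 1 wpt, 604 and 1322 CPM at 2 wpt and 1652, 395, 387 and 556 CPM at 4 wpt, and for Ina 85.9, 84.3 and 52.3 CPM at 1 wpt, 67.5 and 149 CPM at 2 wpt and 143, 52.6, 56.2 and 53.3 CPM at 4 wpt. The Ina level was 16.7% of Intact at 4 wpt, the lowest of the 8 genes there (log2 fold change -2.58 ± 0.38 (SE), adjusted p = 8.48e-06). Without +PBS-4w replicate 1 it was 11.9%. Nefh at 4 wpt was again high in replicate 1 alone, and its mean there went from 27.5% of Intact to 16.4% without that library.

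Map2 stood at 374, 450.1 and 208 CPM at 1 wpt, 363 and 579 CPM at 2 wpt and 387, 294, 334 and 399.7 CPM at 4 wpt and was called lower at every week (log2 fold change -1.86, -1.41 and -1.82, adjusted p = 3.89e-06, 0.000818 and 1.45e-06, edgeR's quasi-likelihood F-test, with p-values adjusted by Benjamini-Hochberg). Its 4 libraries at 4 wpt lay within a narrow range, without the high library seen for the neurofilaments. Mapt stood at 275, 298 and 137 CPM at 1 wpt, 297 and 383 CPM at 2 wpt and 347, 232, 249 and 262 CPM at 4 wpt, and was also called at every week (log2 fold change -1.44, -0.92 and -1.24, adjusted p = 4.14e-05, 0.0123 and 7.46e-05, same edgeR test). Tubb3 stood at 432, 313 and 153 CPM at 1 wpt, 340.4 and 555 CPM at 2 wpt and 736, 195, 191 and 257 CPM at 4 wpt, where +PBS-4w replicate 1 reached the Intact range. At 4 wpt it was called lower (log2 fold change -1.04 ± 0.39 (SE), adjusted p = 0.0295), and lost the call without Intact replicate 1 or 2 or without +PBS-4w replicate 2, 3 or 4 (adjusted p = 0.0588 to 0.0958 in edgeR). At 1 wpt it lost the call without Intact replicate 2 or +PBS-1w replicate 3 (adjusted p = 0.0531 and 0.11 in edgeR). Stmn2 stood at 213, 164 and 83.7 CPM at 1 wpt, 148 and 246 CPM at 2 wpt and 304, 89.2, 78.7 and 116 CPM at 4 wpt, and its call at 1 wpt was lost without +PBS-1w replicate 3 (adjusted p = 0.0666 in edgeR).

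Against sub-SCI, 2 genes were called higher in +PBS-4w, Nefl (log2 fold change 1.43 ± 0.49 (SE), adjusted p = 0.0371) and Map2 (log2 fold change 0.70 ± 0.25 (SE), adjusted p = 0.0402), with 13.4% of all genes higher, and 0 of the 8 were DEGs (4.28% of all genes). Groups did not overlap for Map2 alone (12.5% of all genes). Both calls were lost without sub-SCI replicate 3, with Nefl at a log2 fold change of 0.97 (adjusted p = 0.157 in edgeR) and Map2 at 0.42 (0.241), while 7.75% of all genes were called higher. They were also lost without +PBS-4w replicate 1, with Nefl at 0.81 (adjusted p = 0.157 in edgeR) and Map2 at 0.64 (0.0572), while 18% of all genes were called higher. Nefl was also lost without sub-SCI replicate 1 (adjusted p = 0.0787 in edgeR), and Map2 without +PBS-4w replicate 3 or 4 (0.0536 and 0.0893). Without sub-SCI replicate 2, 4 genes were called (11.3% of all genes higher), and without +PBS-4w replicate 4, 1 (11.9%). Without +PBS-4w replicate 1 the differences of Tubb3 and Stmn2 turned negative, from 0.55 and 0.50 to -0.15 and -0.15.

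**Figure D2:**
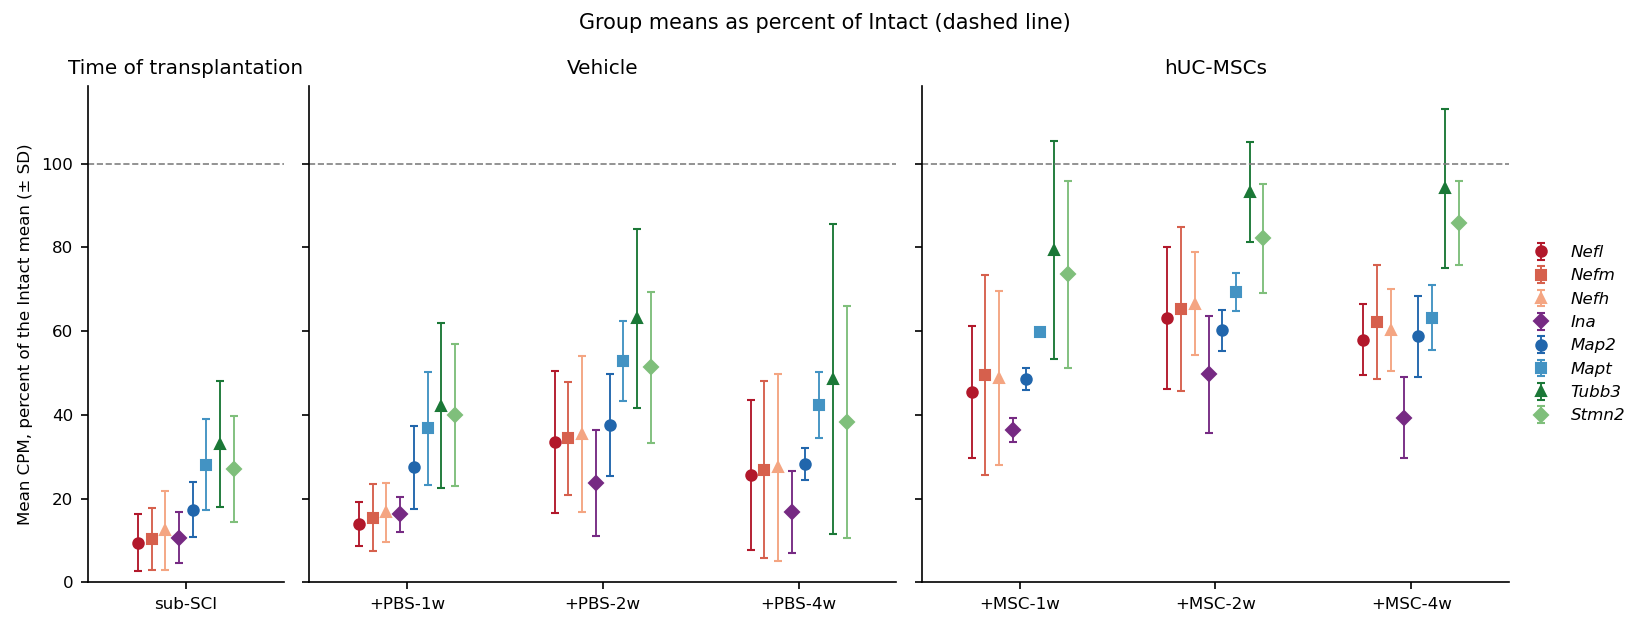
Group means of the 8 genes as a percentage of the Intact mean, with the SD between libraries in percent. Shown in 3 panels are sub-SCI, +PBS and +MSC over weeks post transplantation. All +PBS means stayed at or below 63.0% of Intact, and the Tubb3 and Stmn2 means in +MSC lay between 73.6% and 94.1%.

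From lowest to highest mean, the order of the groups was sub-SCI, +PBS-1w, +PBS-4w, +PBS-2w, +MSC-1w, +MSC-4w, +MSC-2w and Intact for Nefl, Nefm, Nefh, Ina, Map2 and Mapt. For Nefl the libraries of neighbouring groups in this order overlapped throughout, except that Intact lay apart from +MSC-2w. Tubb3 and Stmn2 differed from this order in that +MSC-4w stood above +MSC-2w, and for Stmn2 +PBS-4w stood below +PBS-1w. These positions rest on overlapping libraries and were not tested as an order.

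In cords with hUC-MSCs the 8 transcripts were higher than in cords with PBS. This comparison asks what transplantation did to them at each week. Averaged over the 3 weeks within the same fit, all 8 genes were called higher in +MSC (12.3% of all genes called higher), by a log2 fold change of 0.56 (Mapt) to 1.27 (Nefl and Nefm), and 3 of them, Nefl, Nefm and Ina, were DEGs (1.61% of all genes). The calls rested on +PBS-2w replicate 1, one of only 2 libraries in its group. Without it only Ina and Map2 were still called (4.32% of all genes higher), and the adjusted p of the other 6 in edgeR ranged from 0.0514 (Nefl) to 0.149 (Tubb3). Without +PBS-1w replicate 3, +MSC-1w replicate 1 or +MSC-2w replicate 1, Tubb3 was not called. With the libraries numbered 1 left out of every group, 7 were called (8.16% of all genes higher), and 0 were DEGs.

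The weeks on their own gave less. At 1 wpt 0 of the 8 genes were called by edgeR, with 0.0389% of all genes called higher. The smallest adjusted p was 0.118, and 6 genes passed an unadjusted p under 0.05, while DESeq2 on all libraries called 1 (2.04% of all genes higher) and on the 2 groups alone 4 (5.09%). At 2 wpt edgeR called 0 (0% of all genes), with the smallest adjusted p at 0.369 and 2 genes at an unadjusted p under 0.05, and DESeq2 called 0 on all libraries (0.203% of all genes higher) and 2 on the 2 groups (2.84%). At 4 wpt edgeR called Map2 alone (log2 fold change 1.06 ± 0.23 (SE), adjusted p = 0.0124; 3.07% of all genes called higher), and all 8 genes passed an unadjusted p under 0.05. By edgeR, no gene of the 8 was a DEG at a single week (0%, 0% and 0.495% of all genes at 1, 2 and 4 wpt). The study, which used DESeq2, reported genes changed by the cells at each of these weeks, so these shares are not its counts.

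Which library was present decided the count at 4 wpt. With +PBS-4w replicate 1 left out, which has Nefl, Nefh, Ina, Tubb3 and Stmn2 far above its group, all 8 genes were called, with Nefl at a log2 fold change of 1.76 (adjusted p = 0.00963 in edgeR), while 9.63% of all genes were called higher in that fit against 3.07% with the library. With either +PBS-4w replicate 2 or +MSC-4w replicate 1 left out, 0 were called, with 0.847% and 0.836% of all genes higher, and Map2 had an adjusted p of 0.0564 and 0.0606 in edgeR. Without sub-SCI replicate 3, 3 were called (3.84% of all genes higher), and without sub-SCI replicate 2, +PBS-1w replicate 3, +PBS-2w replicate 2 or +MSC-4w replicate 3, 2 (2.93% to 4.1%). At 1 wpt Nefl was called without sub-SCI replicate 3 or +PBS-4w replicate 1 (adjusted p = 0.0476 and 0.0439 in edgeR), with 0.835% and 1.85% of all genes higher.

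Nefl was measured at 2084, 1044 and 1422 CPM at 1 wpt, 2757, 1728 and 1836 CPM at 2 wpt and 1921, 1627, 2304 and 1879 CPM at 4 wpt in +MSC, against 616, 501 and 279, 719 and 1517 and 1745, 505, 507 and 664 CPM in +PBS. Every +MSC library was above every +PBS library of its week at 1 and 2 wpt, and at 4 wpt only +PBS-4w replicate 1 reached into the +MSC range. The mean difference over the weeks was 1.27 ± 0.30 (SE) on the log2 scale, adjusted p = 0.00585 in edgeR. Nefm stood at 2531, 934 and 1562 CPM at 1 wpt, 2969, 1856 and 1799.9 CPM at 2 wpt and 1899, 1753, 2773 and 1987 CPM at 4 wpt (log2 fold change 1.27 ± 0.33 (SE), adjusted p = 0.00947, mean of the weeks). Nefh stood at 1906, 778 and 1289 CPM at 1 wpt, 2188, 1564 and 1669.8 CPM at 2 wpt and 1312, 1578, 1945 and 1729 CPM at 4 wpt (log2 fold change 1.19 ± 0.33 (SE), adjusted p = 0.0131). In all 3 subunits +MSC-1w replicate 2 was the lowest of its group. Ina stood at 181, 159 and 158 CPM at 1 wpt, 300.1, 185 and 194 CPM at 2 wpt and 227, 168, 125 and 199 CPM at 4 wpt (log2 fold change 1.15 ± 0.24 (SE), adjusted p = 0.00279), and was above +PBS without overlap at 1 and 2 wpt.

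Map2 stood at 629.8, 625 and 569 CPM at 1 wpt, 810.0, 760.2 and 689 CPM at 2 wpt and 896, 649, 638 and 757 CPM at 4 wpt. Every +MSC library was above every +PBS library of its week at all 3 weeks, and the difference of the mean was log2 fold change 0.85 ± 0.15 (SE), adjusted p = 0.000963. Mapt stood at 383, 389.5 and 379.5 CPM at 1 wpt, 479, 425 and 434 CPM at 2 wpt and 419, 345, 397 and 466 CPM at 4 wpt (log2 fold change 0.56 ± 0.14 (SE), adjusted p = 0.00976), the smallest difference of the 8 genes. At 4 wpt +MSC-4w replicate 2 and +PBS-4w replicate 1 overlapped for Mapt by a small margin, and the other libraries did not.

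Tubb3 stood at 754, 385 and 554 CPM at 1 wpt, 755, 591 and 639.7 CPM at 2 wpt and 514, 832, 705 and 622 CPM at 4 wpt (log2 fold change 0.81 ± 0.26 (SE), adjusted p = 0.0298), and Stmn2 at 367, 195 and 284 CPM at 1 wpt, 373, 286 and 286 CPM at 2 wpt and 292, 373, 349.9 and 302 CPM at 4 wpt (log2 fold change 0.91 ± 0.25 (SE), adjusted p = 0.013). For both genes the groups overlapped at 1 and 4 wpt and were separate at 2 wpt. Over the 8 genes, groups did not overlap for 6 at 1 wpt (all but Tubb3 and Stmn2), for 8 at 2 wpt and for Map2 alone at 4 wpt, against 15.3%, 18.6% and 6.08% of all genes. The difference between +MSC and +PBS was compared between the weeks for each gene. None of the 24 differences was called by edgeR (adjusted p from 0.999 to 1), 0 passed an unadjusted p under 0.05, and DESeq2 called 0. No difference between weeks was detectable with these libraries.

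Markers of several cell types moved along with these results. Over the mean of the weeks, 12.3% of all genes were called higher in +MSC and 10.9% lower. Over the mean of the weeks, 12 of 14 neuron markers were called higher in +MSC, with summed levels of 1895 to 2842, 2413 to 3694 and 2022 to 3394 CPM at 1, 2 and 4 wpt against 674 to 1234, 1099 to 2129 and 721 to 2943 CPM in +PBS. The ranges were separate at 1 and 2 wpt and overlapped at 4 wpt. Of the microglia and macrophage markers 6 of 12, with sums of 3431 to 3868, 2287 to 3668 and 2687 to 3278 CPM against 4932 to 7843, 3263 to 4797 and 2459 to 4089.6 CPM, and of the fibroblast and scar genes 9 of 10, were called lower. The sums of the scar genes were 1989 to 3734, 561 to 909 and 1139 to 2893 CPM in +MSC and 4218 to 9709, 1784 to 2344 and 1257 to 5157 CPM in +PBS, and these too overlapped at 4 wpt. Oligodendrocyte, astrocyte, Schwann and endothelial lists had 1, 2, 0 and 0 of 12, 10, 8 and 8 genes called higher. These small counts were not read as a change of those cells, and genes called lower are not given for these lists. At 1 wpt the endothelial sums were 388 to 462 CPM in +MSC and 509 to 636 CPM in +PBS. At 2 wpt they were 290 to 356 and 458 to 490 CPM, again lower in +MSC without overlap. Astrocyte sums were higher in +MSC without overlap at 1 wpt, and oligodendrocyte sums at 2 wpt. The other ranges of these lists overlapped. None of the markers was at 0, and their part in the difference was not tested.

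Against sub-SCI, all 8 genes were called higher in +MSC-4w and all 8 were DEGs, without overlap of the groups (22.2% of all genes called higher, 10.2% DEGs, 26.2% without overlap). The log2 fold changes lay between 1.17 (Mapt) and 2.61 (Nefl), and those of +PBS-4w against the same sub-SCI libraries between 0.50 (Stmn2) and 1.43 (Nefl). Only Tubb3 lost its call when a library was left out, sub-SCI replicate 3 (adjusted p = 0.059 in edgeR).

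Against Intact, fewer of the 8 genes were called lower in +MSC. At 1 wpt Ina, Map2 and Mapt were called (3 genes, 14.8% of all genes lower), at 2 wpt Map2 (1 gene, 6.44%) and at 4 wpt Ina, Map2 and Mapt (3 genes, 13.6%). DEGs numbered 2, 0 and 1 (2.63%, 0.461% and 1.53% of all genes). The fold changes at 4 wpt were -1.34, -0.77 and -0.66 on the log2 scale (adjusted p = 0.00746, 0.0132 and 0.0242, edgeR). The lack of a call does not mean a return to Intact levels: all 10 +MSC libraries were below the lowest Intact library for Nefl, Nefm, Nefh, Ina, Map2 and Mapt. For Tubb3 this held for 4 of 10 and for Stmn2 for 7 of 10 libraries. Groups did not overlap for 6 genes at each week, against 25.5%, 21.3% and 20.4% of all genes. Tubb3 had mean levels of 93.2% and 94.1% of Intact at 2 and 4 wpt (log2 fold change -0.10 ± 0.42 (SE), adjusted p = 0.893, and log2 fold change -0.09 ± 0.39 (SE), adjusted p = 0.887), and its sign at 4 wpt turned without Intact replicate 2 (0.02), without +MSC-4w replicate 1 (0.02) and with libraries scaled by their totals (0.01), and that at 2 wpt without Intact replicate 2 (0.01). The Map2 call at 2 wpt was lost without any of Intact replicates 1 to 3 or any +MSC-2w library (adjusted p = 0.057 to 0.149 in edgeR). Without sub-SCI replicate 3 or +PBS-4w replicate 1, Ina was also called at 2 wpt and Nefl at 1 wpt. The Mapt call was lost at 1 wpt without any of the 3 +MSC-1w libraries (0.0529 to 0.0625), and at 4 wpt without Intact replicate 3 or +MSC-4w replicate 2 or 3 (0.0542 to 0.0784).

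**Figure D3:**
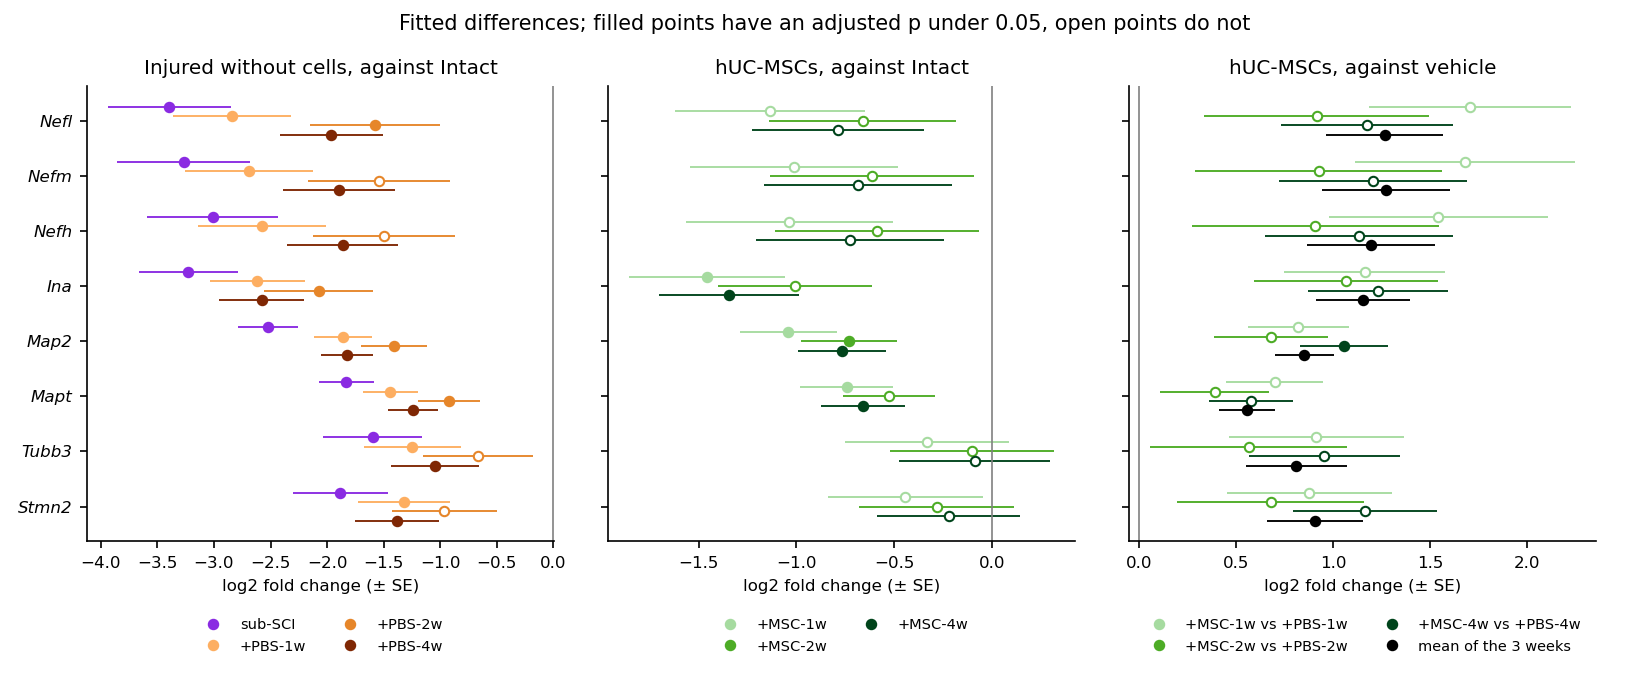
log2 fold changes (± SE) of the 8 genes in 3 panels, injured groups without cells against Intact, +MSC against Intact and +MSC against +PBS, with filled symbols at an adjusted p under 0.05 by edgeR. All symbols of sub-SCI are filled and lie between -3.39 and -1.59, and the mean of the weeks in +MSC against +PBS is filled for all 8 genes, between 0.56 and 1.27.

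The proportions among the transcripts were compared within each library, as a log2 ratio, which does not depend on how libraries are scaled. Each gene was set against the mean log2 CPM of the 14 neuron markers, and Nefm, Nefh and Ina against Nefl, in 4 Intact and 12 injured libraries without cells (exact two-sided permutation test, 1820 regroupings with a smallest p of 0.000549, Benjamini-Hochberg over 22 ratio tests). Ratios among the neurofilament subunits did not pass the test. Nefm to Nefl stood at 0.05, -0.02, 0.05 and 0.00 in Intact and 0.20, 0.11 and 0.14 in sub-SCI, and over the 12 injured libraries the difference was 0.07 (p = 0.4, adjusted p = 0.518, exact permutation). For Nefh to Nefl it was 0.17 (p = 0.0813, adjusted p = 0.187, exact permutation), and for Ina to Nefl -0.11 (p = 0.669, adjusted p = 0.736, exact permutation). These differences average over groups that were not alike. Nefh to Nefl was -0.03 to 0.13 in sub-SCI, above the -0.38 to -0.24 of the Intact libraries, with means of -0.05, -0.22 and -0.27 in +PBS at 1, 2 and 4 wpt. Ina to Nefl had a mean of -2.87 in Intact, above it -2.52 in sub-SCI and -2.61 in +PBS-1w, and below it -3.38 and -3.42 in +PBS-2w and +PBS-4w. Single groups were not tested.

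Relative to the neuron markers, Ina was lower and Mapt, Tubb3 and Stmn2 were higher in injured cords than in Intact. Ina stood at 1.46, 1.46, 1.49 and 1.46 in Intact, and at 0.86, 1.06 and 0.57 in sub-SCI. Over the 12 injured libraries the difference was -0.54 (p = 0.000549, adjusted p = 0.00403, exact permutation, the smallest p it can give), and every injured library was below every Intact one. The Mapt ratio was 1.71, 2.07, 2.09 and 2.01 in Intact and 3.0, 2.52 and 3.02 in sub-SCI, a difference of 0.81 over the 12 libraries (same p). Tubb3 rose by 0.93 (same p) and Stmn2 by 0.68 (p = 0.0011, adjusted p = 0.00604, exact permutation). The other 4 genes were not called, with differences of -0.43 for Nefl, -0.36 for Nefm, -0.26 for Nefh and 0.26 for Map2 (adjusted p = 0.281, 0.401, 0.506 and 0.281, exact permutation). The Nefl ratio was 3.49, 3.92 and 2.64 in sub-SCI and 3.74, 3.61 and 3.54 in +PBS-1w against 4.18, 4.56, 4.33 and 4.28 in Intact, while at 4 wpt +PBS stood at 4.59, 4.37, 3.95 and 4.39.

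Within weeks, +MSC and +PBS differed in 2 of 11 ratios (14000 regroupings, smallest p 7.14e-05). Mapt to the neuron markers was lower in +MSC, with a mean difference of -0.43 (-0.30, -0.44 and -0.55 at 1, 2 and 4 wpt; p = 0.0075, adjusted p = 0.033, exact permutation). The Ina ratio was higher by 0.21 (0.12, 0.30 and 0.20; p = 0.0095, adjusted p = 0.0348, exact permutation). Nefl to the neuron markers was not called (difference 0.34, p = 0.0173, adjusted p = 0.0543, exact permutation). It was called without +PBS-2w replicate 2, +PBS-4w replicate 1, +MSC-1w replicate 2 or +MSC-4w replicate 1 (adjusted p = 0.00566 to 0.0492, exact permutation), and without the last of these so were Nefm (0.0496) and Nefh (0.0444). The call of Ina was lost when +PBS-1w replicate 1 or 2, +PBS-2w replicate 1, +PBS-4w replicate 3 or 4, +MSC-1w replicate 2 or 3, +MSC-2w replicate 1, 2 or 3, or +MSC-4w replicate 2 or 4 was left out (adjusted p = 0.0516 to 0.0872, exact permutation), with differences of 0.16 to 0.21. That of Mapt was lost without +PBS-1w replicate 2, +PBS-2w replicate 1, +PBS-4w replicate 2, 3 or 4, +MSC-1w replicate 1, +MSC-2w replicate 1 or +MSC-4w replicate 2 or 4 (0.0503 to 0.112), with differences of -0.35 to -0.44. The number of called ratios ranged from 0 to 5 when a single library was left out, while the 4 calls of the injury comparison remained in every case.

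**Figure D4:**
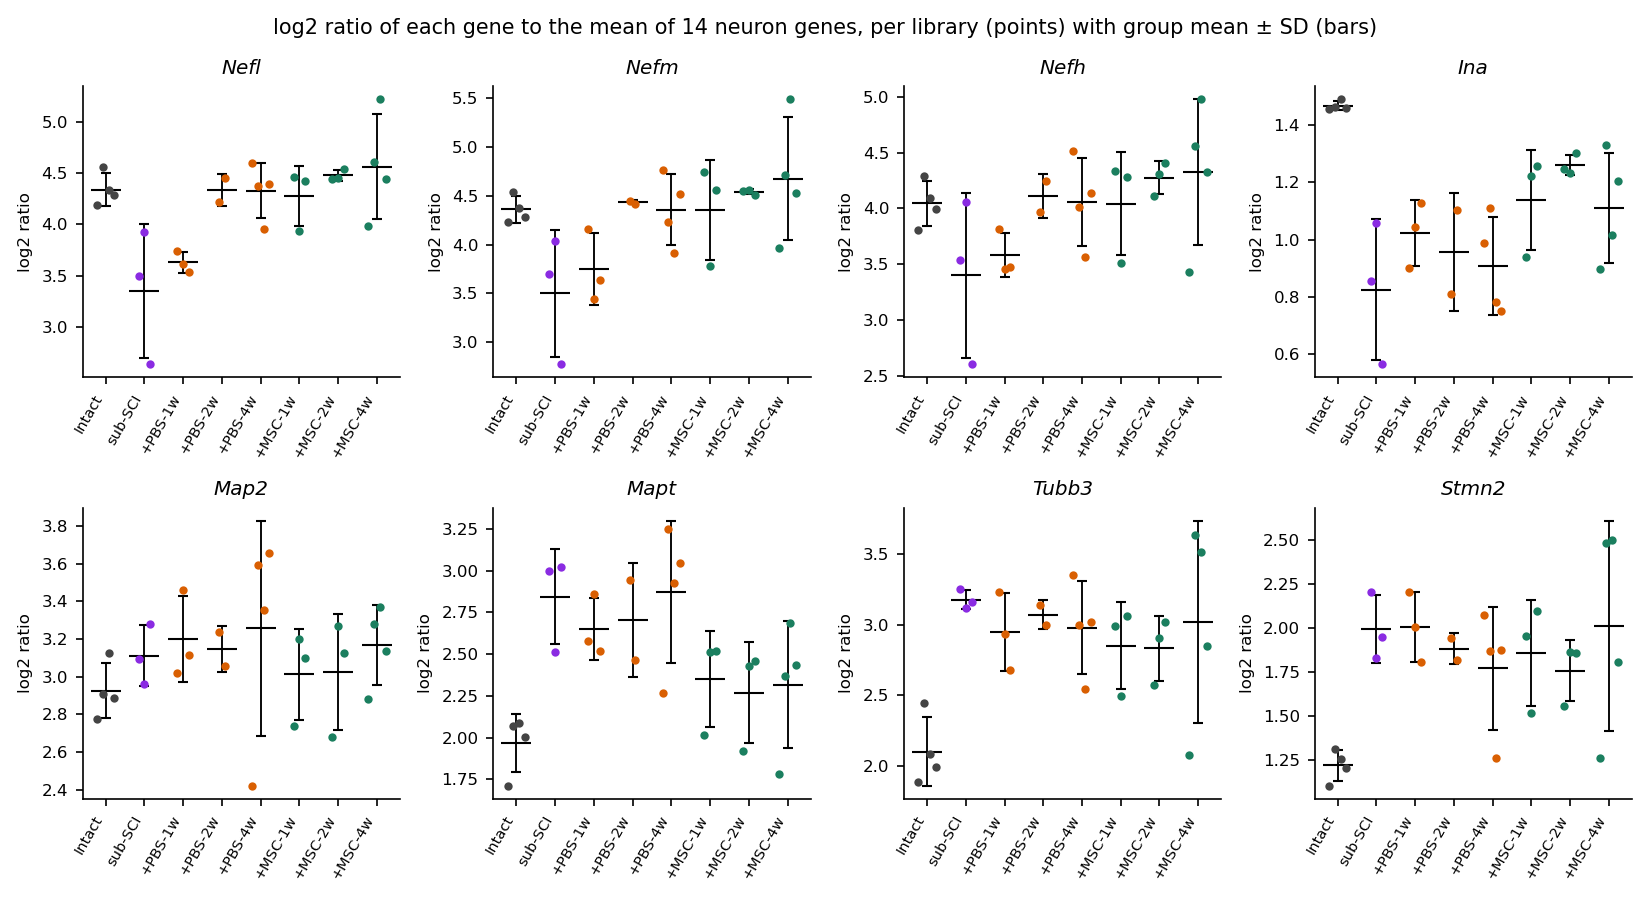
log2 ratio of each of the 8 genes to the mean of 14 neuron markers in each of the 26 libraries, one panel per gene. For Ina every injured library without cells lies below the 4 Intact libraries, and for Mapt and Tubb3 every one lies above them.

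The profiles of the genes over the 26 libraries were compared by the mean absolute difference of log2 CPM, each gene centred on its own mean. The genes closest to each member, up to 3, are given as a description, since libraries of a group share their condition. The neurofilament triplet was closest to itself. Nefm lay 0.11 from Nefl and Nefh 0.13, the nearest and the next nearest of all genes, and Entpd3, an ecto-nucleotidase, was the third of all 3 subunits (0.14 from Nefl). For Ina the nearest was Chrna4 (0.10), a nicotinic receptor subunit, while Ina was only the 135th nearest of Nefl. Tubb3 and Stmn2 were each other's nearest (0.12), and Prph, the peripheral neuron filament, was among the 3 of Tubb3 (0.19).

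The other genes of Tubb3 and Stmn2 were Slc10a4 (0.18), a vesicle transporter, for the first and Asphd1 (0.16) and Reep1 (0.17) for the second. Map2 was closest to Tmem178b (0.08), Ppfia2 (0.11), a scaffold of the presynaptic active zone, and Adarb1 (0.12), an RNA-editing enzyme. Mapt was closest to Syt11 (0.09), Aldh5a1 (0.09), an enzyme of GABA breakdown, and Lrrc4c (0.11). Mapt was the 1151st nearest gene of Nefl.

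The wider cytoskeleton was read from 6 lists of genes with a known role. Beside the 8 genes, 11 other intermediate filament genes held 6 called higher and 1 called lower in sub-SCI against Intact (30.5% of all genes higher, median log2 fold change 1.32, against -0.02 over all genes tested). Vim (vimentin), an intermediate filament of glia and mesenchymal cells, rose from 276 ± 127 CPM to 3733 ± 1210.1 CPM (SD; log2 fold change 3.76 ± 0.34 (SE), adjusted p = 7.22e-09), and Nes (nestin), of progenitors and reactive astrocytes, rose by 3.02 on the log2 scale. Prph had -1.17 (adjusted p = 0.0724, edgeR) and was not called, and Synm (synemin), the 1 lower gene, had -0.56 (adjusted p = 0.0244, edgeR). In +MSC against +PBS 4 of the 11 were called lower, among them Vim (-0.73) and Nes (-0.51), with no gene called higher (10.9% of all genes lower).

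Of 12 tubulin genes, 3 rose and 5 fell in sub-SCI (median -0.28), while 30.5% of all genes rose and 30.9% fell. Tubb6 rose from 11 ± 2.63 CPM to 213 ± 87.7 CPM (log2 fold change 4.27 ± 0.29 (SE), adjusted p = 1.63e-10) and Tuba1c by 2.39, whereas Tuba8 had -2.16 and Tuba4a -2.02 and fell. In +MSC against +PBS these 4 genes moved the other way, Tubb6 -0.76 and Tuba1c -0.72 lower, Tuba4a 0.77 and Tuba8 0.86 higher, all called by edgeR. Of 17 microtubule-associated and stathmin genes tested, 12 fell and 1 rose in sub-SCI (median -1.41, against the same shares of all genes), among them Map1b, a partner of growing microtubules, from 3174 ± 426 CPM to 528 ± 85.1 CPM, and Stmn3 (-2.65). Dpysl3, a collapsin response mediator, was the 1 that rose (1.06), and Dpysl4 (0.41, adjusted p = 0.292, edgeR) was not called. With cells 8 of 17 were higher, among them Map1b (1.00), and 0 lower in edgeR, against 12.3% and 10.9% of all genes.

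The membrane skeleton and the motors of axonal transport fell throughout. Over all genes tested, 30.9% were called lower and 30.5% higher in sub-SCI. In +MSC against +PBS, mean of the weeks, 12.3% were called higher. All 8 spectrin and ankyrin genes were called lower in sub-SCI (median -2.16), from Add2 (-3.36, 67.7 ± 5.7 CPM to 6.58 ± 2.45 CPM) to Sptbn1 (-0.99) and Dst (-0.96), and 6 were higher in +MSC. All 11 motor genes fell (median -1.76), including Kif5a, the neuronal kinesin heavy chain, from 1237 ± 94.9 CPM to 154 ± 67.0 CPM (-3.0), Dync1i1 (-3.22), Klc1 (-1.14) and Dctn1 (-1.13). In +MSC against +PBS 10 of 11 rose (median 0.61), Kif5a by 1.18 and Dync1i1 by 1.07. Of 11 genes of filament kinases and turnover, 8 fell and 2 rose in sub-SCI (median -1.48). Cdk5r2 (-2.61), which activates the kinase Cdk5, and Ttbk1 (-2.49), a tau kinase, fell, and the calpain inhibitor Cast (0.90) and the calpain Capn1 (0.80) rose.

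In the neuron lists, Slc32a1, the vesicular transporter for GABA and glycine, was lowest (-3.58 in sub-SCI against Intact) followed by Rbfox3, the antigen NeuN (-3.40), and the smallest differences were those of Elavl3 (-1.51) and Uchl1 (-1.88), all called. Over the 14 markers the median was -2.65, against -2.77 over the 8 cytoskeleton genes, and 0.94 against 1.03 in +MSC against +PBS. In the motor neuron list, Slc5a7, the choline transporter, had -3.20, Chat -2.87, Mnx1 -2.38 and Slc18a3 -2.26. In +MSC against +PBS Slc5a7 (1.10), Chat (1.01) and Slc18a3 (0.95) rose over the mean of the weeks, with 12.3% of all genes called higher. At single weeks every gene of this list, Mnx1 and Isl1 among them, was positive at 1 wpt (1.17 to 1.66) and at 2 wpt (0.37 to 0.77). None was called by edgeR at these 2 weeks. The lists overlap in what they mark, so their medians are set side by side and not tested.

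**Figure D5:**
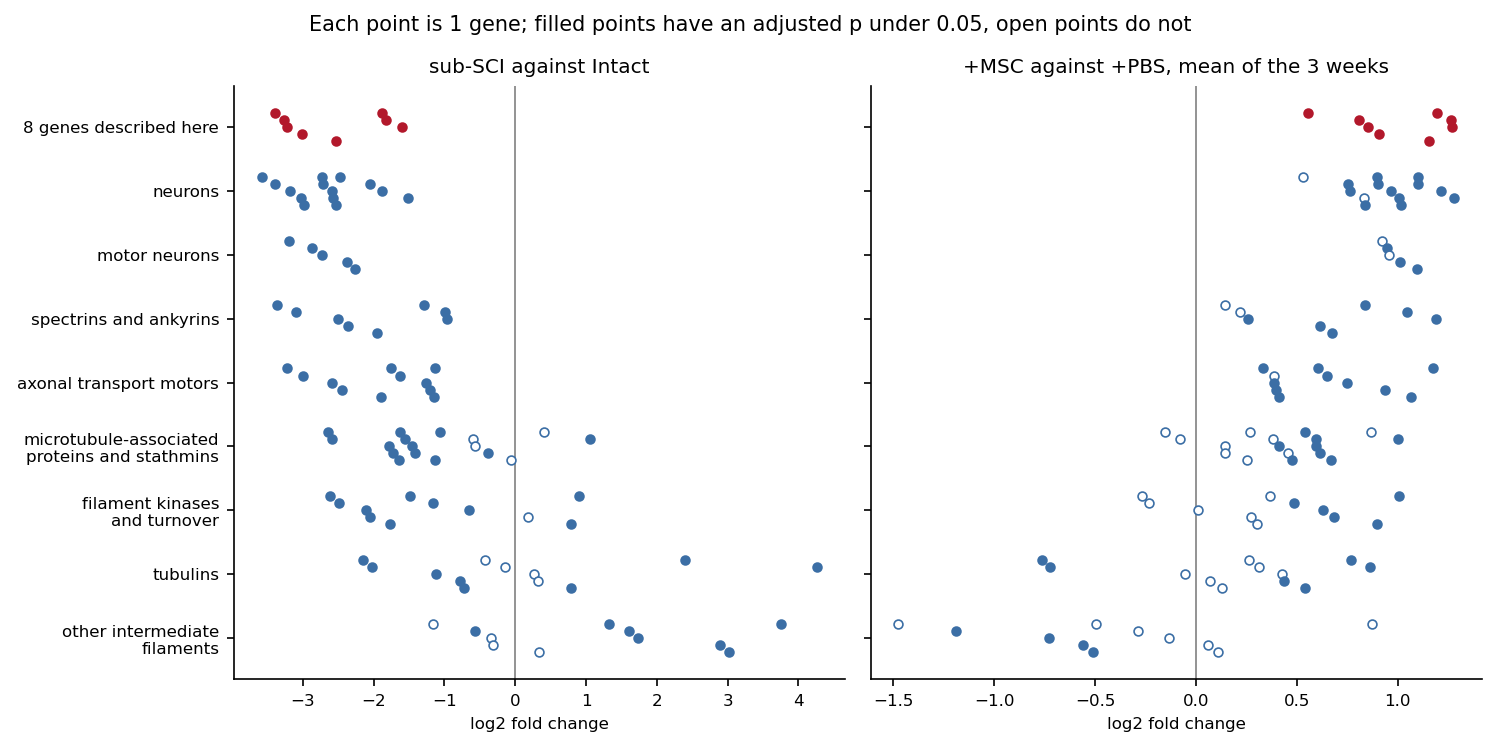
log2 fold change of each gene of the cytoskeleton and neuron lists, by list, in sub-SCI against Intact (one panel) and in +MSC against +PBS, mean of the 3 weeks (the other). The 8 neurofilament and neuronal cytoskeleton genes lie between -3.39 and -1.59 in the first and between 0.56 and 1.27 in the second. In the first, 6 of the 11 other intermediate filament genes were called higher, against 30.5% of all genes.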

How the data were processed

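RNA sequencing of 26 spinal cord libraries in 8 groups was analysed, with groups and replicate numbers from the labels. The methods list 2 repeats for +MSC-2w and the labels 3, and the labels were followed. The authors trimmed reads with Trim Galore 0.5.0, took out reads matching the human build GRCh38, aligned what was left to the rat build Rnor6 with HISAT2 2.1.0, and used SAMtools 1.9 and featureCounts 1.6.4. The authors deposited raw counts per gene, without normalization. Each library's own counts equalled the joint table (26 of 26), and 6513 of 32883 genes had no count. The annotation release and the strand setting are not given in the sources used here, so overlapping genes and close paralogs are uncertain. How many human reads were removed was not analysed here.

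In R 4.3.3, the 17990 genes kept by filterByExpr in edgeR 4.0.16 were scaled by TMM and fitted in 1 model of 8 groups without covariates (glmQLFit, glmQLFTest), with Benjamini-Hochberg adjustment over all of them. log2 CPM used a prior count of 2, and SE is the log2 fold change over the square root of F. The log2 ratios were compared by exact two-sided permutation. Total counts per library were 19496602 to 43468509. The members and gene lists were chosen with earlier results of these data known. The genes named are the 8 members, the 2 highest and 2 lowest genes of each cytoskeleton and neuron list in sub-SCI against Intact, the 3 nearest genes of each member and markers of other cells. Some genes that this rule names are not reported here. Of the listed genes, Mapre2 and Pecam1 were not in the table and Cldn5 did not pass the filter. Alternatives were DESeq2 1.42.0 on all libraries and on 2 groups, edgeR on 2 groups, median-of-ratios size factors, library totals, no filter, a minimum of 10 counts in each library, a block for the replicate number, a term for replicate 1, the libraries numbered 1 left out, and each library left out. The tests were tried on simulated counts. limma 3.58.1 was loaded by edgeR. Promoter sequences are from RefSeq (GRCr8). Rnor6 coordinates are not given. The study's qPCR, protein and behavioural data were not analysed here.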

Additional observations from a re-analysis of the deposited data

Results flagged for a closer look

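All 5 values that stood apart from the other libraries of their group belonged to +PBS-4w replicate 1. Its Nefl level was 1745 CPM against 505 to 664 CPM in the other 3 libraries, its Nefh level 1652 CPM against 387 to 556 CPM and its Ina level 143 CPM against 52.6 to 56.2 CPM. Tubb3 stood at 736 CPM against 191 to 257 CPM and Stmn2 at 304 CPM against 78.7 to 116 CPM. In each case the gap to the nearest library exceeded the limit of Dixon's test at 95% for groups of 4. Chance alone gives such a value in about 1 in 20 groups, or 2.85 in the 57 groups of values tested. The 5 values come from 1 library and are not independent, so their count cannot be weighed against that number. Nefm, Map2 and Mapt of the same library did not pass this limit. No difference between weeks in the effect of transplantation was called for the 8 genes, in 24 comparisons.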

How the results depend on the processing

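All 8 genes were called lower in sub-SCI than in Intact, and higher in +MSC-4w than in sub-SCI, under each of DESeq2, edgeR on 2 groups, the other scalings and filters, the replicate block, the term for replicate 1 and without the libraries numbered 1. The counts for the weeks with 2 to 4 libraries a group moved. With DESeq2 on all libraries, 1 gene was called in +MSC-1w against +PBS-1w, 3 in +MSC-4w against +PBS-4w and 2 in +MSC-2w against Intact (2.04%, 5.56% and 9.56% of all genes in that direction). DESeq2 on the 2 groups alone called 4, 3 and 6 here (5.09%, 3.6% and 17.2% of all genes), and 2 in +MSC-2w against +PBS-2w (2.84%), 7 in +MSC-1w against Intact (22%), 6 in +MSC-4w against Intact (20%), 8 in +PBS-2w against Intact (22.8%) and 0 in +PBS-4w against sub-SCI (8.82%). With edgeR on the 2 groups, 6, 6 and 6 were called in +MSC against Intact at 1, 2 and 4 wpt (23.4%, 16.3% and 20.5%), 8 in +PBS-2w against Intact (24%) and 0 in +PBS-4w against sub-SCI (4.29%). With library totals in place of TMM, which moved the median of all genes to at most 0.13, 2 were called in +MSC-4w against +PBS-4w (3.48%) and 0 in +MSC-2w against Intact (4.77%). Without a filter on low counts 0 were called in +MSC-2w against Intact (2.79%) and 0 in +PBS-4w against sub-SCI (7.08%), with median-of-ratios factors 1 in the latter (12.1%), and with at least 10 counts in every library 2 in +MSC-4w against +PBS-4w (3.78%). The cause was not tested.

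With the libraries numbered 1 left out of all groups, 7 genes were called in +MSC-4w against +PBS-4w (7% of all genes), 0 in +PBS-2w against Intact (7.93%) and 0 in +PBS-4w against sub-SCI (15.7%), and 5 ratios in the transplantation comparison. With the median of the neuron genes 1 ratio was called. With a term for replicate 1, 3 were called in +MSC-4w against +PBS-4w (4.35%) and 2 in +MSC-2w against Intact (9.17%).

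With the replicate number as a block, 3 genes were called in +MSC-4w against +PBS-4w (4.04%), 2 in +MSC-2w against Intact (8.15%) and 7 in +PBS-2w against Intact (19.1%), and all 8 in the mean of the weeks (14.6%). Same-numbered libraries deviated together only in part. Correlations of their deviations ranged from -0.164 to 0.317, and in 0 of 12 comparisons was every pair above 0.1, so that the numbers were not taken to pair the libraries.

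When each library was left out in turn, the number of genes called ranged from 2 to 8 in the mean of the weeks, 0 to 1, 0 to 8 in +MSC against +PBS at 1 and 4 wpt, 0 to 2 in +MSC-2w against Intact, 0 to 7 in +PBS-2w against Intact and 0 to 4 in +PBS-4w against sub-SCI, and called ratios in the transplantation comparison from 0 to 5.

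Some values changed sign. Without the libraries numbered 1 they were Ina to Nefl on injury (0.004), Nefh to Nefl (0.0275), Stmn2 (0.1788) and Tubb3 (0.1394) to the neuron markers on transplantation, Tubb3 in +MSC-4w against Intact (0.0358) and in +PBS-4w against sub-SCI (-0.0206). Stmn2 to the median of the neuron genes had 0.056, and Tubb3 in +MSC-4w against Intact had 0.0127 with library totals. With single libraries left out, the transplantation ratios ranged from -0.0441 to 0.0542 for Nefm to Nefl, -0.0656 to 0.0741 for Stmn2 and -0.1656 to 0.0077 for Tubb3. The fold changes ranged from -0.149 to 0.7548 for Stmn2 and -0.1462 to 0.7953 for Tubb3 in +PBS-4w against sub-SCI, and from -0.2068 to 0.0141 and -0.2108 to 0.0241 for Tubb3 in +MSC-2w and +MSC-4w against Intact. The lowest count behind a value of the 8 genes was 549 reads.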
